A study of Rattus norvegicus with 24 samples.

Results

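The change in liver gene expression that 4 organochlorine compounds had in common was described in males of the inbred rat strain F344, on 16 of the 24 arrays of a study of 6 compounds. The compounds were hexachloroethane (500 mg/kg/day), an ethane with every hydrogen replaced by chlorine, 1,2,3-trichloropropane (50 mg/kg/day), a propane with a chlorine on each carbon, 3-(4-chlorophenyl)-1,1-dimethylurea (250 mg/kg/day), a phenylurea herbicide with the common name monuron and a chlorine on its ring, and 1,2-dichlorobenzene (300 mg/kg/day), a benzene with chlorines on neighbouring carbons. Each was given in corn oil by daily gavage (5 ml per kg) for 28 days to 4 rats, 5 weeks old per the labels. The 8 arrays read beside them held 1-amino-2-methylanthraquinone (150 mg/kg/day in corn oil), an anthraquinone dye with an amino and a methyl group, and tetracycline hydrochloride (1000 mg/kg/day in water), an antibiotic with chloride only as the salt, each in 4 rats of the same sex, strain and age. The design calls hexachloroethane, 1,2,3-trichloropropane, monuron and 1-amino-2-methylanthraquinone carcinogens, and 1,2-dichlorobenzene and tetracycline hydrochloride non-carcinogens. Every array set the liver RNA of 1 treated rat, labelled with Cy3, against RNA pooled from rats that got the vehicle, labelled with Cy5, and no array had the dyes swapped. Each compound was studied at 1 dose and each dose was different, so values are set side by side and any difference between compounds includes the dose.

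A liver meets foreign compounds with enzymes that oxidise them, such as cytochrome P450s, and with enzymes that join the products to glutathione, glucuronic acid or sulfate so that they can leave the cell. The genes of these enzymes are switched on by sensors, among them Nrf2, which answers electrophiles and oxidants, the aryl hydrocarbon receptor, which binds planar aromatic compounds, and the nuclear receptors CAR and PXR. Hepatocytes also make glucose from amino acids, mostly near the portal vein, and raise genes of amino acid synthesis through the factor Atf4 when amino acids run short.

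A gene was counted as a shared change when its mean log2 ratio of treated over vehicle, in the series table the authors deposited, was at least 1.5-fold from 0 in the same direction under each of the 4 organochlorines. Of 11595 genes tested, 73 (0.63%) were higher under all 4 and 71 (0.612%) were lower. These 144 genes are the members described here, and their series-table ratios chose them and are given without a test. A symbol that is not provisional was at hand for 34 of the higher and 25 of the lower members. With no limit of size 2187 genes (18.9%) had a mean above 0 under all 4 compounds and 2693 (23.2%) a mean below 0, and at 2-fold 27 genes were higher and 19 lower. The members just inside the limit were Mcm3 (smallest of the 4 means 0.59), a subunit of the replicative helicase, and Pla2g2c (0.59), a secreted phospholipase, and just outside lay Cyp2c24 (0.58), a cytochrome P450, and Gsta2 (0.58), a glutathione transferase. Among the lower genes Pck1 (-0.59), which commits carbon to glucose synthesis, and Papss2 (-0.59), which makes the donor of sulfate, lay just inside, and Atp1b1 (-0.56), a subunit of the sodium pump, and Acmsd (-0.56), an enzyme of tryptophan breakdown, just outside.

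Unless the series table is named, ratios below are log2 of treated over vehicle after background correction and loess scaling of the scanner signals. On this scale 1 stands for 2-fold, and ratios are given per rat or as mean ± SD over 4 rats. Membership is by the series table. So are the counts of listed genes with a mean above or below 0 under all 4 compounds, and the shares of all genes beside them. A gene was called under a compound at a limma adjusted p under 0.05 (Benjamini-Hochberg over all genes) and at least 2-fold. By that rule 11 genes were higher under all 4 organochlorines (0.0949% of the genes tested) and 4 were lower (0.0345%), and all 15 were among the members. The same arrays chose the members, so this overlap and the p-values of members under the organochlorines are not independent support. The named genes among them were Gsta3, Gstt3, Gpx2, Nqo1, Aldh1a1, Ugt2b1 and Asns, which rose, and Sds, Oat, Slc6a6 and Dusp1, which fell. With each array centred on its median and no loess, 6 genes were called higher and 170 lower under all 4, so the balance of the directions depends on the scaling. The tests measure the spread between rats given 1 compound, and leave out the spread of the vehicle pool. Whether the corn oil compounds shared a pool is not given, so the part of a shared pool in an agreement between them cannot be told apart. The 4 arrays of a compound filled 1 slide, and an effect of the slide cannot be told apart from that of the compound.

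**Figure D1:**
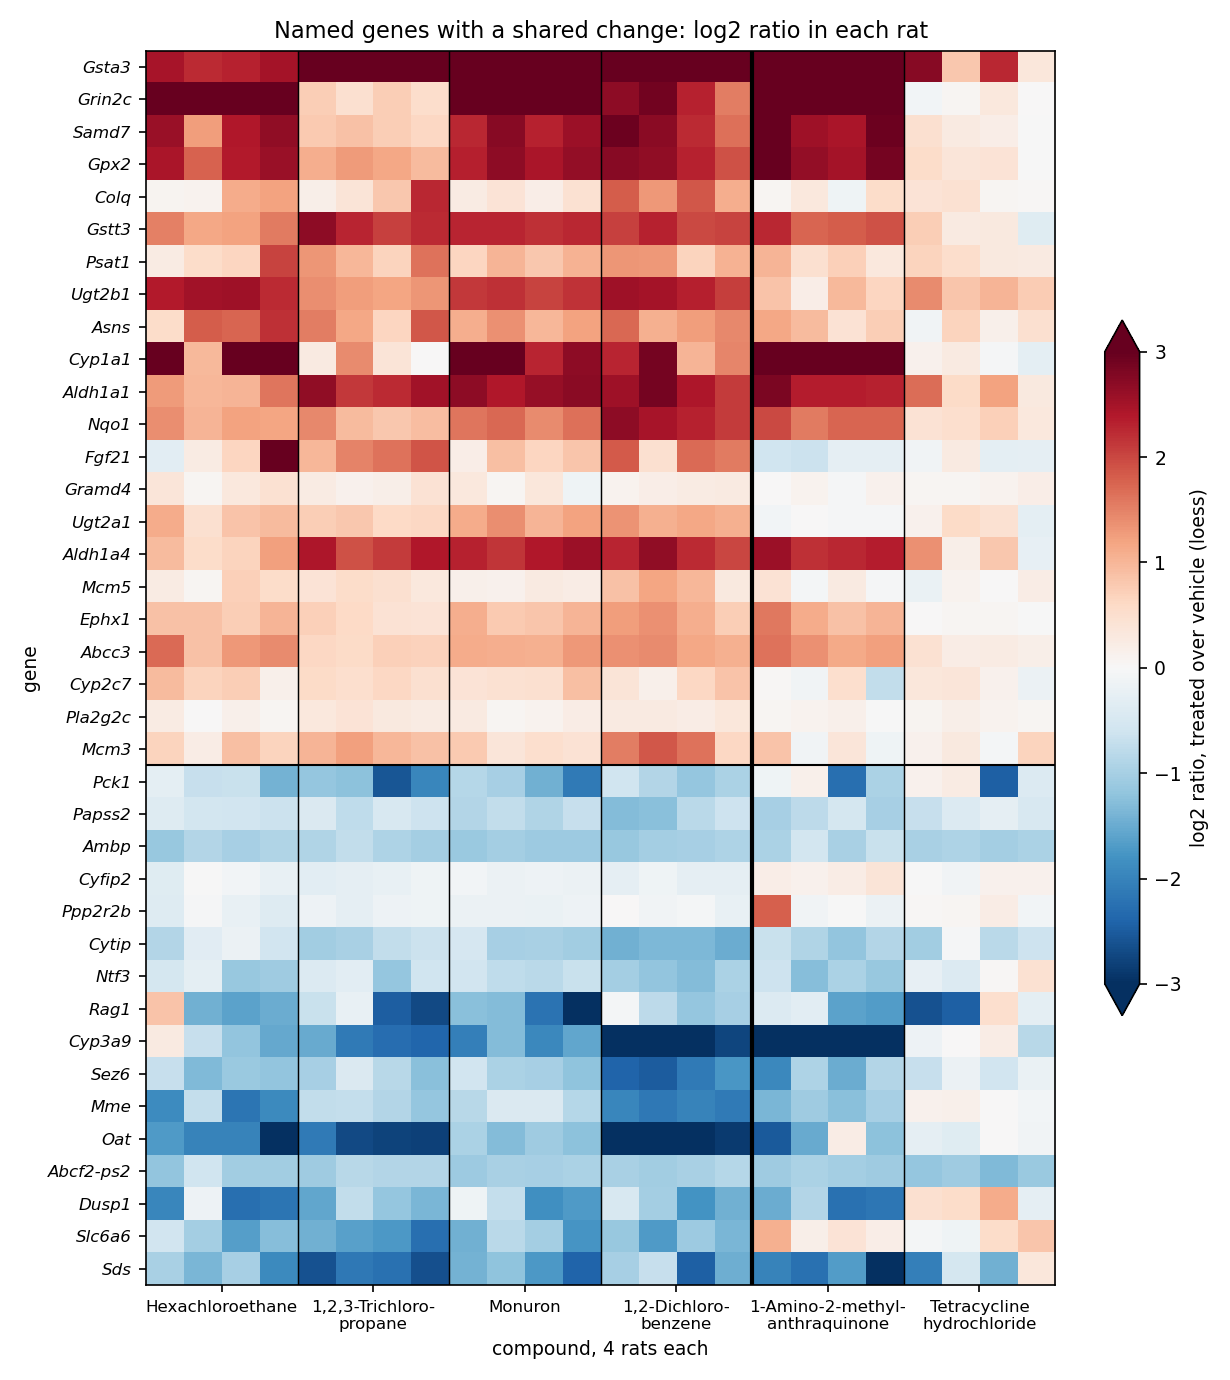
Log2 ratio of treated over vehicle (loess scaled) of 38 named genes with a shared change (rows) in each of the 24 rats (columns, grouped by compound), with colour running from -3 to 3. Gsta3, Gpx2, Gstt3, Aldh1a1 and Nqo1 are above 0 in every organochlorine rat and in every rat given 1-amino-2-methylanthraquinone, while Slc6a6 is below 0 in all 16 organochlorine rats and above 0 in all 4 rats given 1-amino-2-methylanthraquinone.

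Genes of detoxification formed 1 group of the higher members. Of 26 measured genes of a list of Nrf2 targets, 7 were members (Gsta3, Gpx2, Nqo1, Akr7a3, Abcc3, Ephx1 and Gsta5), all of them higher, and 17 had a mean above 0 under all 4 organochlorines against 1 below 0, beside 18.9% and 23.2% of all genes. The median ratio of the list was 0.35 under hexachloroethane, 0.39 under 1,2,3-trichloropropane, 0.55 under monuron and 0.74 under 1,2-dichlorobenzene, beside medians of all genes between -0.02 and -0.01. In that order 5, 5, 5 and 10 of the 26 were called higher and 0 lower. Under single compounds the share of all genes called higher was 0.474% for hexachloroethane, 0.293% for 1,2,3-trichloropropane, 0.733% for monuron and 0.776% for 1,2-dichlorobenzene. Not every gene of the list moved: Hmox1, which breaks down heme, had ratios of 0.08, -0.37, 0.94 and 0.04, and Txnrd1, a thioredoxin reductase, 0.24, -0.39, 0.22 and -0.02. Gstp1, a glutathione transferase that is low in normal rat liver, also varied, with means of -0.28, 2.14, 0.35 and 4.64.

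The promoters of Gsta3 and Gpx2 are shown because they were the matched higher members whose window holds the core of an Nrf2 element, TGACNNNGC (searched on both strands, no overlap with the other motifs required). Each run is the 250 bases before the gene's start in RefSeq (GRCr8), 5′ to 3′ on the gene's strand, with the element in capitals.
Gsta3, chr9:31154739-31154988, plus strand: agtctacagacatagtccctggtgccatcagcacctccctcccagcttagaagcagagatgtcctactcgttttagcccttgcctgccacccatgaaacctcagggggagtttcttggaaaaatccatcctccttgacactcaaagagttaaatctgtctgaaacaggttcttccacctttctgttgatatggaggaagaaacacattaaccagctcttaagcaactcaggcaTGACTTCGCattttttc
Gpx2, chr6:101230034-101230283, minus strand: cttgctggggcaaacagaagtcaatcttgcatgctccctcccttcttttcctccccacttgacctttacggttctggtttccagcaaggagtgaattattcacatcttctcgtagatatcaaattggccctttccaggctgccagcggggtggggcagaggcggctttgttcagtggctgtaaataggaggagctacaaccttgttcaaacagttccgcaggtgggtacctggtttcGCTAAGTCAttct
In Gsta3 the match began 17 bases before the start on the gene's own strand, and in Gpx2 13 bases before it on the other strand. Slc6a6, a lower member, also holds a match, 101 bases before its start on the other strand. Promoters were found in RefSeq for 30 of the 73 higher and 18 of the 71 lower members. The Nrf2 core was in 2 of the 30 (6.67%) and 3 of the 18 (16.7%), beside 10.1% of 33469 promoters. The core of the aryl hydrocarbon receptor's element, GCGTG, was in 11 of the 30 (36.7%) and 5 of the 18 (27.8%), beside 25.9% of all promoters. A match is a description of these letters in this window and not a site of binding.

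Gsta3, a subunit of the glutathione transferases that take up electrophiles, had the largest mean over the 4 organochlorines of any named member. The ratios in the 4 rats were 2.48, 2.24, 2.31 and 2.50 under hexachloroethane and 5.24, 4.24, 4.18 and 4.66 under 1,2,3-trichloropropane. They were 5.24, 5.20, 5.22 and 5.34 under monuron and 5.24, 5.36, 4.70 and 4.64 under 1,2-dichlorobenzene. All 16 rats were far above 0, and the 4 hexachloroethane rats lay below every rat of the other organochlorines. The fit gave a standard error of 0.28 for each mean, and the largest of the 4 adjusted p-values was 7.83e-07 (limma). Rats given 1-amino-2-methylanthraquinone had 4.57, 3.64, 5.01 and 3.65, and rats given tetracycline hydrochloride 2.72, 0.82, 2.27 and 0.35, so Gsta3 was higher in all 24 rats. It was called under both of these compounds too (adjusted p = 1.08e-10 and 0.000202, limma). Probes of the alpha class transferases can share sequence with one another, so the part of single genes among Gsta3, Gsta5 and Gsta1 is uncertain.

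Gpx2, a glutathione peroxidase known from the gut lining, was higher in every organochlorine rat. Its ratios were 2.46, 1.78, 2.38 and 2.58 under hexachloroethane, 1.10, 1.27, 1.16 and 0.95 under 1,2,3-trichloropropane, 2.34, 2.68, 2.44 and 2.63 under monuron, and 2.72, 2.66, 2.32 and 1.91 under 1,2-dichlorobenzene. The 1,2,3-trichloropropane rats lay below all others of the group without overlap. The largest of its 4 adjusted p-values was 7.21e-07 (limma). The 1-amino-2-methylanthraquinone rats, at 3.12, 2.63, 2.49 and 2.87, reached the level of the upper organochlorines, and the tetracycline hydrochloride rats, at 0.55, 0.37, 0.41 and -0.01, stayed near 0.

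Nqo1, a quinone reductase that both Nrf2 and the aryl hydrocarbon receptor can raise, had 1.4, 1.01, 1.21 and 1.18 under hexachloroethane and 1.45, 0.96, 0.80 and 0.92 under 1,2,3-trichloropropane. The values were 1.60, 1.72, 1.41 and 1.66 under monuron and 2.69, 2.48, 2.30 and 2.10 under 1,2-dichlorobenzene. No rat was below 0.80, and the largest of the 4 adjusted p-values was 5.43e-08 (limma). Without rat 1 of 1,2,3-trichloropropane its mean under that compound fell under the 2-fold limit and the call was lost. Its means were 1.76 ± 0.17 under 1-amino-2-methylanthraquinone and 0.49 ± 0.17 under tetracycline hydrochloride.

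Gstt3, a theta class glutathione transferase, rose under all 4 (largest adjusted p = 2.06e-08, limma), with rats between 1.16 and 1.56 under hexachloroethane, 2.04 and 2.68 under 1,2,3-trichloropropane, 2.20 and 2.28 under monuron, and 1.97 and 2.32 under 1,2-dichlorobenzene. Aldh1a1, an aldehyde dehydrogenase, rose likewise (largest adjusted p = 3.53e-06, limma), with means of 1.22 ± 0.29, 2.38 ± 0.24, 2.6 ± 0.14 and 2.48 ± 0.31. In both genes, as in Gsta3, the hexachloroethane mean was the lowest of the 4. Aldh1a4, a near copy of Aldh1a1 whose probes may catch the same RNA, had means of 0.85 ± 0.31, 2.20 ± 0.25, 2.36 ± 0.18 and 2.30 ± 0.27. Akr7a3, an aflatoxin aldehyde reductase chosen for mention after its values were seen, had means of 0.83, 2.6, 2.5 and 3.58 in the same order. Gstt3, Aldh1a1, Aldh1a4 and Akr7a3 were also called higher under 1-amino-2-methylanthraquinone, with means of 1.94, 2.46, 2.35 and 2.22. Their means under tetracycline hydrochloride were 0.24, 0.94, 0.53 and -0.08, and none was called there.

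Ephx1, the microsomal epoxide hydrolase, and Abcc3, a pump that carries conjugates into the blood, were members with smaller ratios. Abcc3 had means of 1.32 ± 0.34 under hexachloroethane, 0.66 ± 0.07 under 1,2,3-trichloropropane, 1.15 ± 0.11 under monuron and 1.26 ± 0.17 under 1,2-dichlorobenzene. Ephx1 had means of 0.88 ± 0.11, 0.54 ± 0.15, 0.93 ± 0.14 and 1.12 ± 0.28, and the mean of these 4 turned to -0.15 when each array was centred on its median without loess. Under 1,2,3-trichloropropane neither gene reached the 2-fold limit of a call, and Ephx1 did not reach it under hexachloroethane or monuron either. Both were called higher under 1-amino-2-methylanthraquinone, with means of 1.35 for Abcc3 and 1.15 for Ephx1. Their means under tetracycline hydrochloride were 0.27 and 0.03.

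**Figure D2:**
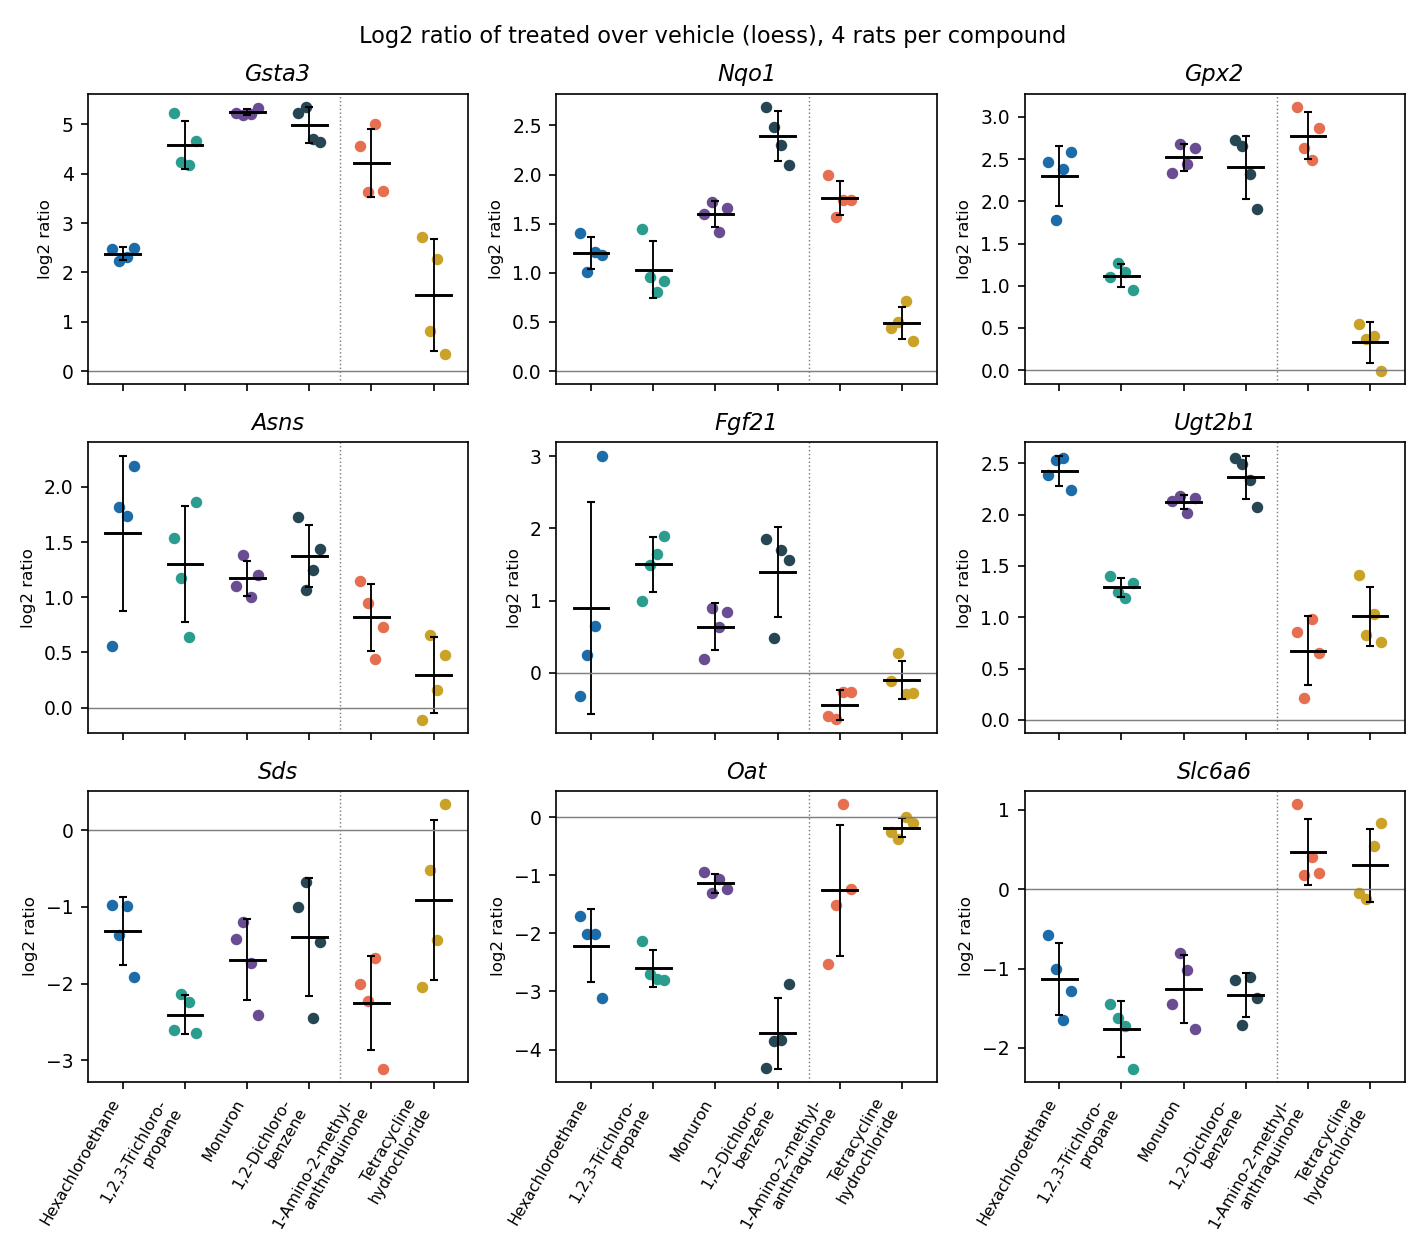
Log2 ratio of treated over vehicle (loess scaled) of 9 genes in each rat by compound, with points for rats, bars for the mean of 4 rats and error bars for the SD. Gsta3, Nqo1, Gpx2, Asns and Ugt2b1 lie above 0 in all 16 organochlorine rats and Sds, Oat and Slc6a6 below 0, whereas Fgf21 ranges from -0.32 to 3.01 within hexachloroethane.

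Cyp1a1, the P450 that marks activation of the aryl hydrocarbon receptor, was a member, but its rats were far apart. Its ratios were 3.43, 0.98, 3.09 and 3.51 under hexachloroethane, 0.28, 1.41, 0.38 and 0.01 under 1,2,3-trichloropropane, 3.05, 3.06, 2.29 and 2.68 under monuron, and 2.28, 2.88, 1.01 and 1.46 under 1,2-dichlorobenzene. It was called under hexachloroethane (adjusted p = 7.99e-07), monuron (7.44e-07) and 1,2-dichlorobenzene (4.82e-05) but not under 1,2,3-trichloropropane (adjusted p = 0.199, limma). Under 1,2-dichlorobenzene its vehicle channel was not well above background on any array, and the difference there was at least 3.17-fold, the mean of the treated channel against the lowest signal well above background. Under 1,2,3-trichloropropane and monuron the vehicle channel was well above background on 1 of 4 arrays each. Under 1-amino-2-methylanthraquinone its ratios were the highest, between 4.54 and 5.56, and under tetracycline hydrochloride they lay between -0.29 and 0.26. Of the 5 measured genes of the aryl hydrocarbon receptor list only Cyp1a1 and Nqo1 were members. Cyp1a2, its partner gene in liver, had opposite signs, with means of 0.91 under hexachloroethane, -0.88 under 1,2,3-trichloropropane, 1.54 under monuron and -1.19 under 1,2-dichlorobenzene.

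Ugt2b1, a glucuronosyltransferase that CAR activators raise, was called higher under all 4 compounds. Its ratios were 2.39, 2.53, 2.55 and 2.24 under hexachloroethane, between 1.19 and 1.4 under 1,2,3-trichloropropane, 2.13, 2.18, 2.02 and 2.16 under monuron, and 2.55, 2.49, 2.34 and 2.07 under 1,2-dichlorobenzene. No organochlorine rat was below 1.19, and the largest of the 4 adjusted p-values was 5.61e-09 (limma). The other compounds gave lower values that stayed above 0 in every rat: 0.86, 0.21, 0.98 and 0.65 under 1-amino-2-methylanthraquinone, and 1.41, 0.83, 1.03 and 0.76 under tetracycline hydrochloride. Ugt2a1, a related enzyme best known from the nose, had means of 0.85 ± 0.27, 0.69 ± 0.10, 1.18 ± 0.15 and 1.16 ± 0.13 under the organochlorines, -0.04 ± 0.04 under 1-amino-2-methylanthraquinone and 0.22 ± 0.39 under tetracycline hydrochloride. The genes of the Ugt2 family are close copies, so the split between them is uncertain.

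Of 21 measured CAR and PXR targets, 5 were higher members (Ugt2b1, Aldh1a1, Aldh1a4, Abcc3 and Cyp2c7) and 1, Cyp3a9, was a lower one. Of all genes 0.63% were higher and 0.612% lower members. Called higher were 7 of the 21 under hexachloroethane (0.474% of all genes), 3 under 1,2,3-trichloropropane (0.293%), 7 under monuron (0.733%) and 5 under 1,2-dichlorobenzene (0.776%), and called lower were 0, 2, 1 and 2 (0.431%, 0.638%, 0.664% and 0.828%). The list medians were 0.81, 0.11, 0.52 and 0.14. Cyp2c7, a P450 that is higher in females, had means of 0.63 ± 0.34, 0.55 ± 0.06, 0.56 ± 0.23 and 0.50 ± 0.30, which did not reach the limit of a call, and the mean of the 4 turned to -0.31 under median centring without loess. Cyp3a9, another P450, had the values 0.28, -0.68, -1.18 and -1.53 under hexachloroethane and lay between -3.86 and -1.29 in the 12 rats of the other organochlorines. It was called lower under 1,2,3-trichloropropane, monuron and 1,2-dichlorobenzene but not under hexachloroethane, and in the 1-amino-2-methylanthraquinone rats it lay between -4.31 and -3.21.

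Genes of amino acid synthesis formed a second group of higher members. Of 14 measured genes of the amino acid response, 5 were members (Asns, Psat1, Phgdh, Slc7a5 and Fgf21), all higher, beside 0.63% of all genes. Means above 0 under all 4 compounds were found for 7 and below 0 for 0, beside 18.9% and 23.2% of all genes. Called higher were 2 of the 14 under hexachloroethane (0.474% of all genes), 4 under 1,2,3-trichloropropane (0.293%), 1 under monuron (0.733%) and 4 under 1,2-dichlorobenzene (0.776%), and 0 were called lower. The list medians were 0.57, 0.11, 0.46 and 0.46. The factors of the response did not share the change: Atf4 had means of 0.48, -0.15, 0.10 and 0.07, and Ddit3 0.02, -0.14, -0.10 and 0.02.

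Asns, which makes asparagine, was called under all 4 (largest adjusted p = 7.05e-05, limma; standard error 0.20). Its ratios were 0.56, 1.82, 1.74 and 2.19 under hexachloroethane, 1.54, 1.17, 0.64 and 1.86 under 1,2,3-trichloropropane, 1.10, 1.38, 1.00 and 1.20 under monuron, and between 1.07 and 1.73 under 1,2-dichlorobenzene. The rats of different compounds overlapped, and none was at or below 0. Under 1-amino-2-methylanthraquinone Asns had 1.15, 0.95, 0.44 and 0.73, not reaching 2-fold, and under tetracycline hydrochloride -0.11, 0.66, 0.16 and 0.48.

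Psat1 and Phgdh, which lead from glycolysis to serine, went with it. Psat1 had means of 0.87 ± 0.79, 1.16 ± 0.42, 0.89 ± 0.19 and 1.09 ± 0.30, and Phgdh, chosen for mention after its values were seen, 1.44, 1.98, 0.54 and 2.64. Slc7a5, a carrier of large neutral amino acids chosen in the same way, had 0.62, 0.42, 0.99 and 0.84.

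Fgf21, a hormone the liver secretes in fasting and amino acid shortage, was a member whose mean under hexachloroethane rested on rat 4. Its ratios there were -0.32, 0.25, 0.65 and 3.01, against 0.99, 1.49, 1.64 and 1.89 under 1,2,3-trichloropropane, 0.19, 0.90, 0.64 and 0.84 under monuron, and 1.85, 0.48, 1.70 and 1.57 under 1,2-dichlorobenzene. It was called under 1,2,3-trichloropropane (adjusted p = 0.000766) and 1,2-dichlorobenzene (adjusted p = 0.00107, limma). The 4 rats given 1-amino-2-methylanthraquinone were all below 0, at -0.60, -0.64, -0.26 and -0.27, though this was not called (adjusted p = 0.248, limma). The Fgf21 promoter is shown because it was the only one of the 30 matched higher members to hold the amino acid response element TGATGNAA, which 3.4% of all promoters and 1 of the 18 lower members (5.56%) hold. The element lies on the other strand, beginning 143 bases before the start, and is in capitals.
Fgf21, chr1:105221377-105221626, minus strand (RefSeq, GRCr8): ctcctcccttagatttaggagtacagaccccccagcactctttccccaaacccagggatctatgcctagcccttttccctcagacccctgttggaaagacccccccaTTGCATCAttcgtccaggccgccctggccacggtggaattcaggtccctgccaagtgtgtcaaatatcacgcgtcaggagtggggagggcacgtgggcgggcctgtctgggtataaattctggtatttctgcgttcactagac

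Mcm3 and Mcm5, subunits of the helicase that opens DNA for replication, were the only members among 22 measured cell cycle genes. Of all genes 0.63% were higher members. Mcm3 had means of 0.61 ± 0.29 under hexachloroethane, 1.03 ± 0.14 under 1,2,3-trichloropropane, 0.53 ± 0.18 under monuron and 1.42 ± 0.54 under 1,2-dichlorobenzene. Mcm5 had 0.39 ± 0.29, 0.44 ± 0.10, 0.20 ± 0.06 and 0.84 ± 0.39, with both channels well above background on 11 of the 16 arrays. Of the list as a whole 8 genes had means above 0 under all 4 compounds and 2 below, beside 18.9% and 23.2% of all genes.

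Grin2c, a subunit of the NMDA receptor, and Samd7, a protein known from photoreceptors, were also among the members with the largest ratios. Grin2c had 4.01, 3.02, 4.06 and 4.15 under hexachloroethane, 0.74, 0.47, 0.73 and 0.52 under 1,2,3-trichloropropane, 3.26, 3.41, 3.33 and 3.21 under monuron, and 2.68, 2.90, 2.32 and 1.53 under 1,2-dichlorobenzene. Samd7 had means of 2.23 ± 0.66, 0.76 ± 0.10, 2.46 ± 0.22 and 2.38 ± 0.57. The vehicle channel of Grin2c was well above background on 2 of 4 arrays of 1,2,3-trichloropropane and 3 of 4 of 1,2-dichlorobenzene. In both genes the rats given 1,2,3-trichloropropane lay below all other organochlorine rats. Both were as high under 1-amino-2-methylanthraquinone, at 3.34 ± 0.24 and 2.84 ± 0.45, and near 0 under tetracycline hydrochloride, at 0.07 ± 0.17 and 0.23 ± 0.21.

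Among the lower members were the enzymes of amino acid breakdown Sds and Oat and the glucose synthesis gene Pck1. Sds, which turns serine into pyruvate, was called lower under all 4 compounds (largest adjusted p = 0.00162, limma; standard error 0.31). Its ratios were -0.98, -1.36, -0.99 and -1.92 under hexachloroethane, -2.61, -2.14, -2.24 and -2.64 under 1,2,3-trichloropropane, -1.42, -1.20, -1.73 and -2.41 under monuron, and -1, -0.68, -2.45 and -1.46 under 1,2-dichlorobenzene. It was below 0 in all 16 rats and also in the 4 rats given 1-amino-2-methylanthraquinone (between -3.11 and -1.67), while the tetracycline hydrochloride rats ran from -2.04 to 0.34.

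Oat, an ornithine aminotransferase, was called lower under all 4 as well (largest adjusted p = 0.00242, limma; standard error 0.28). Its ratios were -1.70, -2.01, -2.01 and -3.12 under hexachloroethane, -2.13, -2.70, -2.78 and -2.81 under 1,2,3-trichloropropane, -0.95, -1.31, -1.06 and -1.23 under monuron, and -4.32, -3.86, -3.83 and -2.88 under 1,2-dichlorobenzene. The monuron rats lay above all others of the group. Under 1-amino-2-methylanthraquinone the rats were spread from -2.52 to 0.22 and under tetracycline hydrochloride from -0.37 to 0.

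Pck1 had means of -0.77 ± 0.47, -1.73 ± 0.66, -1.36 ± 0.58 and -0.90 ± 0.23 and was called under 1,2,3-trichloropropane (adjusted p = 0.000727) and monuron (adjusted p = 0.00503, limma). Sds and Pck1 were the members among 21 measured genes of periportal hepatocytes, of which 14 had means below 0 under all 4 compounds and 1 above, beside 23.2% and 18.9% of all genes. Called lower were 1 of the 21 under hexachloroethane (0.431% of all genes), 7 under 1,2,3-trichloropropane (0.638%), 6 under monuron (0.664%) and 3 under 1,2-dichlorobenzene (0.828%). The list medians were -0.34, -0.49, -0.39 and -0.32. Under 1-amino-2-methylanthraquinone the median was -0.42, with 3 called lower (0.871%). With tetracycline hydrochloride it was -0.155, with 0 called lower (0.129%). Tat, a tyrosine aminotransferase of this list that missed the limit under hexachloroethane, had means of -0.47, -2.21, -1.31 and -1.13. In whole liver, fewer cells of a type and less RNA per cell cannot be told apart.

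Slc6a6, the carrier that brings taurine into cells, was called lower under all 4 (largest adjusted p = 6.04e-05, limma; standard error 0.19). Its ratios were -0.58, -1.01, -1.65 and -1.28 under hexachloroethane, -1.44, -1.62, -1.72 and -2.26 under 1,2,3-trichloropropane, -1.44, -0.80, -1.02 and -1.76 under monuron, and -1.14, -1.71, -1.10 and -1.37 under 1,2-dichlorobenzene. The rats given 1-amino-2-methylanthraquinone had 1.07, 0.18, 0.40 and 0.21, and those given tetracycline hydrochloride -0.05, -0.12, 0.54 and 0.83. The highest organochlorine rat, at -0.58, was thus below the lowest of the other 8 rats, at -0.12. The 3 other kept probes of the gene had the same sign under all 4 compounds. Without rat 3 of hexachloroethane the mean there fell short of 2-fold and the call under all 4 was lost.

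Dusp1, a phosphatase of MAP kinases that answers stress quickly, was called lower under all 4, but with rats far apart (largest adjusted p = 0.00782, limma; standard error 0.32). It had -1.96, -0.16, -2.26 and -2.2 under hexachloroethane, -1.57, -0.75, -1.16 and -1.38 under 1,2,3-trichloropropane, -0.13, -0.72, -1.83 and -1.71 under monuron, and -0.48, -1.01, -1.80 and -1.45 under 1,2-dichlorobenzene. Under hexachloroethane, monuron and 1,2-dichlorobenzene 1 rat stayed much nearer 0 than the lowest of its group. Leaving out monuron rat 3, monuron rat 4 or 1,2-dichlorobenzene rat 3 ended the call. Its mean was -1.69 ± 0.64 under 1-amino-2-methylanthraquinone and 0.47 ± 0.56 under tetracycline hydrochloride.

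Other lower members included Mme (neprilysin, a peptidase of the cell surface) and Sez6, a membrane protein known from brain. Mme had means of -1.68 ± 0.66, -0.88 ± 0.20, -0.64 ± 0.24 and -2.06 ± 0.09, and under 1,2-dichlorobenzene, where the treated channel was not well above background on any array, it was at least 4.05-fold lower (adjusted p = 4.29e-10, limma). Sez6 had -1.08 ± 0.28, -0.89 ± 0.35, -0.93 ± 0.26 and -2.19 ± 0.34. Ntf3, the growth factor neurotrophin-3, had -0.75 ± 0.41, -0.62 ± 0.38, -0.71 ± 0.11 and -1.11 ± 0.15. Under 1-amino-2-methylanthraquinone Mme and Sez6 were called lower as well, at -1.17 and -1.32, and Ntf3 had -0.996 without a call. Their means under tetracycline hydrochloride were 0.05, -0.41 and -0.05. All 3 were below 0 in every organochlorine rat. Rag1, a recombinase of lymphocytes, was below 0 in 15 of them and had 0.85, -1.43, -1.6 and -1.5 under hexachloroethane, so its mean of -0.92 there had an SD of 1.18.

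Some lower members had nearly the same ratio in all 6 compounds. Ambp, a secreted plasma protein of hepatocytes, had means of -0.98 ± 0.11, -0.90 ± 0.11, -1.08 ± 0.04 and -1.02 ± 0.09 under the organochlorines, -0.78 ± 0.20 under 1-amino-2-methylanthraquinone and -0.96 ± 0.04 under tetracycline hydrochloride. Abcf2-ps2, a pseudogene, lay between -1.19 and -0.59 in the 16 rats and between -1.32 and -0.96 in the other 8. Papss2 and Cytip, an adaptor protein of blood cells, were below 0 in every one of the 24 rats too, but their means varied more, from -0.998 to -0.46 and from -1.40 to -0.49. Treated RNA carried Cy3 on all arrays, so a preference of a probe for 1 dye and an effect of every treatment cannot be told apart in such genes. In all, 27 higher and 25 lower members had the same sign on all 24 arrays, beside 274 and 437 of all genes.

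Read under the 2 compounds that did not enter the rule, the members leaned the same way under both. Their median ratios were larger under 1-amino-2-methylanthraquinone, and tetracycline hydrochloride had few calls among all genes. Under 1-amino-2-methylanthraquinone 27 of the 73 higher members (37%) were called higher, beside 1.3% of all genes, and 16 of the 71 lower members (22.5%) were called lower, beside 0.871%. Under tetracycline hydrochloride 2 of 73 (2.74%), Gsta3 and Ugt2b1, were called higher, beside 0.155% of all genes, and 2 of 71 (2.82%) lower, beside 0.129%. In either direction these were 43 and 4 of the 144 members, beside 2.12% and 0.285% of all genes. No member was called in the opposite direction under either compound. The median ratio of the higher members was 0.63 under 1-amino-2-methylanthraquinone and 0.23 under tetracycline hydrochloride, and that of the lower members -0.48 and -0.16, beside -0.02 for all genes under both. Under the organochlorines themselves these medians lay between 0.66 and 1.09 and between -0.66 and -0.43. The other corn oil compound may share its vehicle pool with the organochlorines, and tetracycline hydrochloride had a water vehicle. The part of the pool in these counts therefore cannot be told apart. Treated RNA carried the same dye on these arrays too, and the part of a probe's dye preference in these counts was not tested. Abcf2-ps2, with nearly the same ratio under every compound, was among the lower members called under both.

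**Figure D3:**
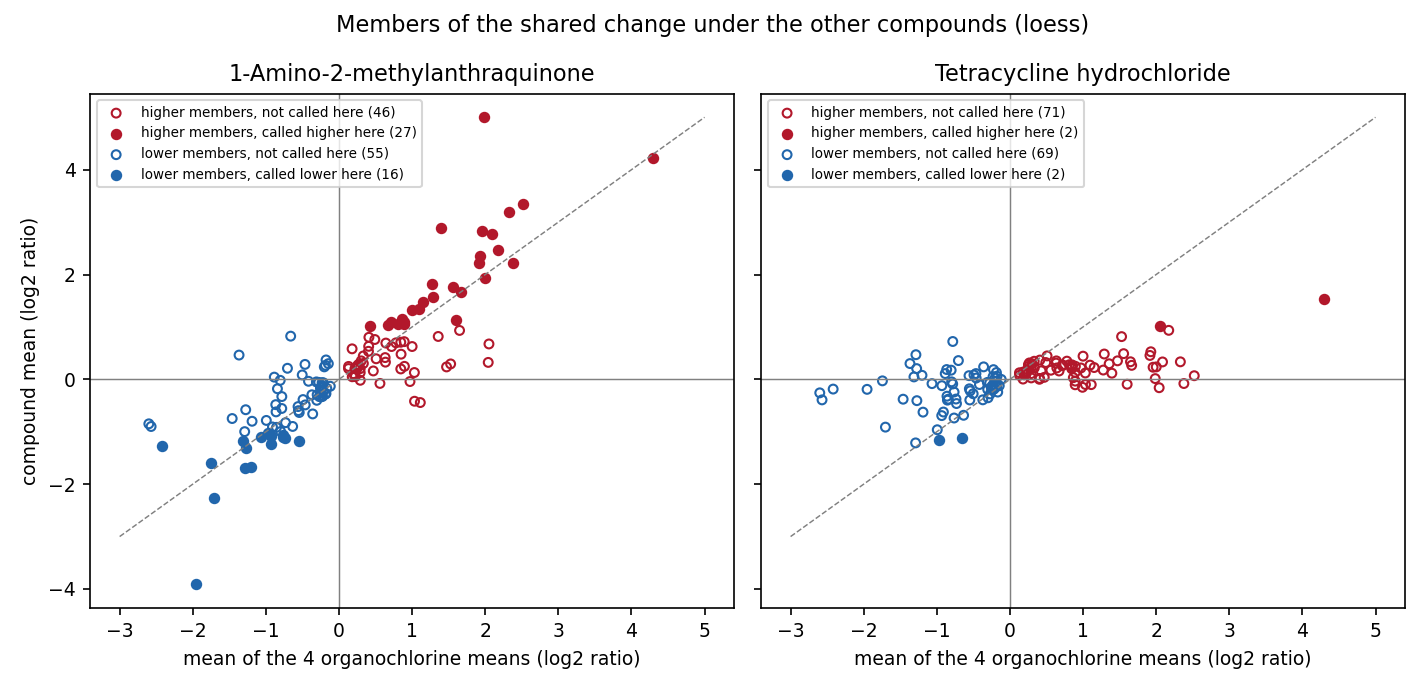
Mean log2 ratio (loess scaled) of each member under 1-amino-2-methylanthraquinone (left) and tetracycline hydrochloride (right) against its mean over the 4 organochlorine means, with filled points for members called under that compound. Under 1-amino-2-methylanthraquinone 27 higher and 16 lower members are filled, and under tetracycline hydrochloride 2 and 2.

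By the series table's ratios, 21 higher members passed 1.5-fold under both of these compounds, 36 under 1-amino-2-methylanthraquinone alone, 3 under tetracycline hydrochloride alone and 13 under neither. Of the lower members 15 passed under both, 34 under 1-amino-2-methylanthraquinone alone, 3 under tetracycline hydrochloride alone and 19 under neither. Of all genes, 7.17% passed higher and 7.49% lower under 1-amino-2-methylanthraquinone, and 1.65% and 2.38% under tetracycline hydrochloride. Members with the opposite sign numbered 5 higher and 10 lower under 1-amino-2-methylanthraquinone, and 8 and 19 under tetracycline hydrochloride. Slc6a6, Pde4b (a phosphodiesterase) and Hsd11b2 (which inactivates corticosterone) were named lower members with means above 0 under both, the last 2 chosen after their values were seen. Pde4b had means of -0.52, -1.11, -0.56 and -0.63 under the organochlorines against 0.21 and 0.36, and Hsd11b2 had -0.57, -0.84, -0.71 and -1.42 against 0.04 and 0.11. The dim lower members Cyfip2 (0.24 and 0.03) and Ppp2r2b (0.37 and 0.06) were also above 0 under both.

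The difference between the 4 organochlorines and the 2 other compounds was also tested directly, at the doses given, with limma and compound as a random block (consensus correlation 0.53). Ugt2b1 was 1.21 higher in the organochlorines (standard error 0.25, adjusted p = 0.0441) and Slc6a6 was 1.75 lower, a difference of -1.75 (standard error 0.36, adjusted p = 0.0441). A gene known only by its cluster name, Rn.149014, was 1.18 higher (adjusted p = 0.0399). These were all the calls in this contrast, 2 higher (0.0172%) and 1 lower (0.00862%), while 1460 genes (12.6%) had an unadjusted p under 0.05. The calls sat close to the threshold: over the 24 fits that each left out 1 rat, Ugt2b1 was called in 10 (adjusted p from 0.0235 to 0.0683) and Slc6a6 in 14 (0.0273 to 0.0686), with the difference staying between 1.13 and 1.28 and between -1.82 and -1.65. The calls of Ugt2b1, Slc6a6 and Rn.149014 were all lost with median centring (adjusted p 0.0627 to 0.164), with scale normalization (0.187 to 0.697) and against tetracycline hydrochloride alone (0.163 to 0.185, limma). In the series table's ratios Ugt2b1 (adjusted p = 0.0806) and Slc6a6 (0.0822, limma) were not called. The scanner ratio gave 0.0901 for both (limma), and Rn.149014 kept its call in these 2 versions (0.0249 and 0.0316, limma). With scan day as a further block Slc6a6 lost its call (adjusted p = 0.0891) and Ugt2b1 kept it (0.00139, limma). Leaving out the compound block, with rats as replicates, gave 15 genes higher (0.129%) and 25 lower (0.216%), but rats of 1 compound share its slide. The compound block used a single correlation for all genes and kept arrays as units, so p-values may be too small where compounds differ more. Ugt2a1 (difference 0.88, adjusted p = 0.0683), Atp1b1 (-1.03, adjusted p = 0.0711) and Fgf21 (1.38, adjusted p = 0.333) did not pass. The 2 groups of compounds shared 1 scan day only, that of hexachloroethane and tetracycline hydrochloride. With rats as replicates, 45 of 11595 genes were higher and 48 lower under hexachloroethane. That sets 1 compound in corn oil against 1 in water, each on its own slide, and does not test the 2 groups.

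How many genes are members depends on how dim signals are handled. Of the 144 members, 78 (44 higher, 34 lower) were well above background in both channels on all 16 arrays. After background correction with an offset and loess, 32 of the 73 higher and 22 of the 71 lower members kept 1.5-fold under all 4 compounds, and all of them kept their sign. The treated channel of 16 lower members and the vehicle channel of 6 higher members was not well above background on any of the 16 arrays. The size of their ratios there is not well measured. Colq, a collagen tail of acetylcholinesterase, was well above background in both channels on 7 of the 16 arrays. Its smallest series-table mean was 1.41, but its loess means were 0.63 ± 0.62, 0.90 ± 0.94, 0.33 ± 0.13 and 1.52 ± 0.39. Gramd4 and Ppp2r2b, a phosphatase subunit, had smallest series-table means of 1.02 and -0.72 and loess means no farther from 0 than 0.30 and -0.26. Neither channel of either gene was well above background on any array of 1,2,3-trichloropropane, monuron or 1,2-dichlorobenzene. Cyfip2, with loess means between -0.24 and -0.15, and Ppp2r2b turned to 0.26 and 0.38 over the 4 compounds under median centring without loess.

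**Figure D4:**
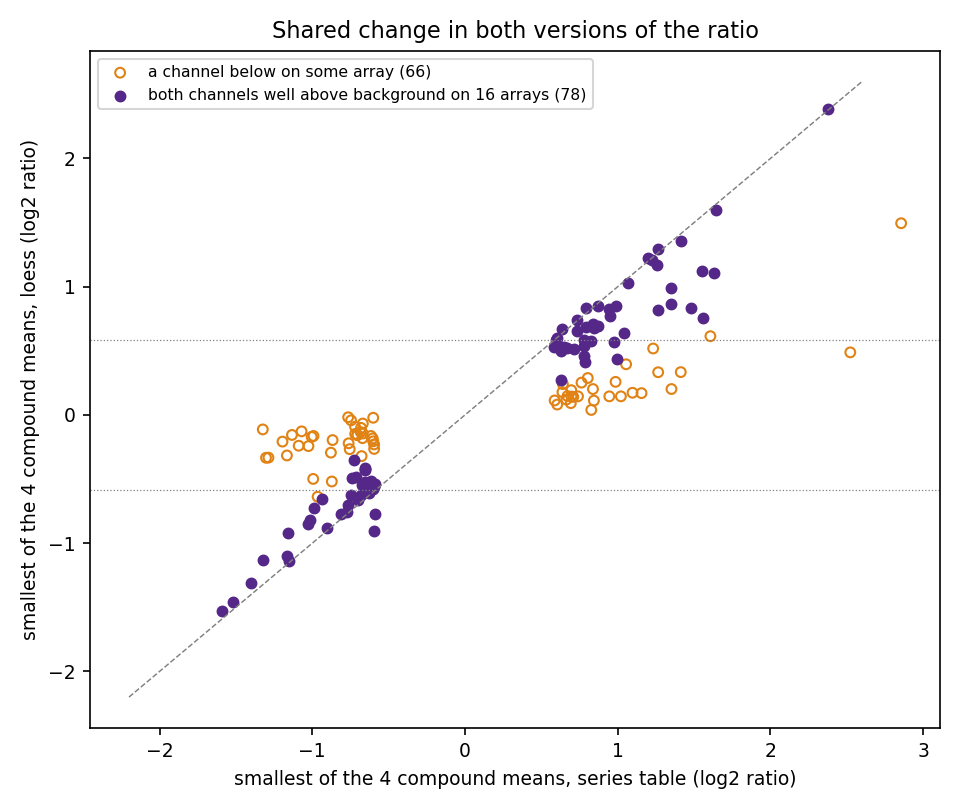
Smallest of the 4 organochlorine means of each member in the series table (horizontal, log2 ratio) against the same after background correction and loess (vertical), with dotted lines at 1.5-fold. The 78 members well above background in both channels on all 16 arrays and the 66 others are marked apart, and 32 higher and 22 lower members lie outside the dotted lines.

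Markers of liver cell types were read beside the members. The share of probes well above background per array was 59.7 to 71.7% for treated RNA and 64.2 to 75.9% for the vehicle pool. All 12 hepatocyte markers were well above background in both channels on all arrays, and none of the markers in 9 lists of cell types was a member. Hepatocyte markers had list medians of -0.46 under hexachloroethane, -0.36 under 1,2,3-trichloropropane, -0.53 under monuron and -0.59 under 1,2-dichlorobenzene. The medians were -0.27 under 1-amino-2-methylanthraquinone and -0.41 under tetracycline hydrochloride. Of the 12 markers 7 were below 0 under all 4 organochlorines, beside 23.2% of all genes. The mean of these markers per rat ran from -0.66 to -0.31 in the organochlorine rats. Of 10 measured macrophage and Kupffer cell markers 0 had the same sign under all 4. Of 10 bile duct markers 3 were above 0, beside 18.9% of all genes, with per-rat means between 0 and 0.44. Under 1-amino-2-methylanthraquinone 6 bile duct markers were called higher, beside 1.3% of all genes, and the list median was 1.34. The 3 measured genes of red blood cell precursors were all called higher under monuron (median 1.13), beside 0.733% of all genes, and none under the other organochlorines. The part of these markers in the members' ratios was not tested.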

How the data were processed

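Scanner files gave mean spot signals and median backgrounds as intensity per the file headers, and a log10 ratio that the scanner software (Agilent Feature Extraction 9.1.3.1, per the submitters' processing notes) had background-subtracted and dye-normalized. The series table the authors deposited gave log2 ratios of treated over vehicle. Set against each array, it matched the scanner ratio turned to treated over vehicle (correlation 0.9999 or more, except 0.9797 for monuron rat 1 and 0.9359 for tetracycline hydrochloride rat 1), with column medians between -0.0101 and 0.0786, so its exact centring is unknown.

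The series table chose the members. For the tests, signals were corrected with normexp (offset 50) and scaled with loess within arrays in limma 3.58.1 (R 4.3.3), control and outlier spots were left out, and 16085 of 21900 probes were kept, those well above background for 1 dye in all 4 rats of any compound. The brightest kept probe stood for its gene (3614 of 11595 genes had several). The array design's names were updated through RefSeq (6176 probes had a current symbol, 1917 an older symbol, 902 matched a RefSeq record, 621 a gene ID, 546 kept the array's name and 11738 had none). All 24 arrays were fitted together (lmFit and eBayes, 18 residual and 2.92 prior degrees of freedom), and the contrast of the 4 organochlorines with the 2 other compounds used duplicateCorrelation by compound. Named genes were the 15 shared changes farthest from 0 in each direction, genes called under all 4 compounds, up to 3 members of each list, up to 5 called genes of the contrast in each direction, and those at the 1.5-fold limit. Results of 2 genes taken by this rule are not reported here. The members and lists were chosen with earlier results of these data known. The code was tested on simulated data.

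Alternatives covered the background correction, the scaling, the filter on dim probes, the probe rule, the limits, blocks for replicate number and scan day, and leaving out each rat. The 4 rats per compound limit the precision.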

Additional observations from a re-analysis of the deposited data

Results flagged for a closer look

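In 10 of 176 groups of 4 rats, 1 rat lay apart from the other 3 of its compound by Dixon's 95% criterion, which chance meets in about 1 of 20 groups. All values are loess scaled log2 ratios of treated over vehicle. Hexachloroethane had 4 of them. Grin2c was 3.02 in rat 2 against 4.01 to 4.15 in the others, and Cyp1a1 was 0.98 in rat 2 against 3.09 to 3.51. Dusp1 was -0.16 in rat 2 against -2.26 to -1.96, and Rag1 was 0.85 in rat 1 against -1.60 to -1.43. So rat 2 of hexachloroethane lay nearer 0 than its group in Grin2c, Cyp1a1 and Dusp1.

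Under monuron rat 4 stood above its group in the P450 genes Cyp2c7 (0.91 against 0.41 to 0.47) and Cyp2c24 (0.98 against 0.46 to 0.53), whose sequences are alike. Cytip was -0.51 in monuron rat 1 against -1.05 to -0.97. Under 1,2,3-trichloropropane Acmsd was -1.47 in rat 4 against -0.93 to -0.85, and Oat was -2.13 in rat 1 against -2.81 to -2.70. Cyfip2, a dim gene, was -0.13 in 1,2-dichlorobenzene rat 2 against -0.28 to -0.26.

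Between groups of compounds, Ugt2b1 was higher in the organochlorines than in the 2 other compounds by 1.21 and Slc6a6 differed by -1.75, both by the limma contrast with compound as a block. Among the named genes, in 3 cases every organochlorine rat lay on 1 side of 0 and every rat of another compound on the other. Most named genes were chosen by their change under the organochlorines, and such cases were not counted over all genes. For Slc6a6 under 1-amino-2-methylanthraquinone (mean 0.46, rats from 0.18 to 1.07) the contrast of the organochlorines with that compound alone gave -1.83 (adjusted p = 0.00718, limma). With 1 compound on that side, this p-value does not measure a spread between compounds there. The other cases were Cyfip2 under 1-amino-2-methylanthraquinone (0.24, from 0.14 to 0.39) and Atp1b1 under tetracycline hydrochloride (0.21, from 0.08 to 0.39). Their values in the contrasts with 1 compound alone are not given here. Against tetracycline hydrochloride alone no gene was called, so Atp1b1 was not called there.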

How the results depend on the processing

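Genes called under all 4 organochlorines (11 higher, 4 lower) numbered 6 and 170 with median centring and no loess, 6 and 3 without background correction, 29 and 16 with the scanner log ratio, 27 and 16 with the series table, 30 and 26 at 1.5-fold, and 553 and 650 with no limit of size. The contrast of the organochlorines with the 2 other compounds (2 higher, 1 lower) gave 0 and 0 with median centring, with scale normalization, with a replicate block and against tetracycline hydrochloride alone, 1 and 1 without background correction, 1 and 0 with either the scanner ratio or the series table, 2 and 5 with no filter on dim probes, 10 and 8 with no limit of size, 15 and 25 with rats as replicates, 27 and 6 with scan day as a block, and 16 and 84 against 1-amino-2-methylanthraquinone alone. Within scan day 1, hexachloroethane against tetracycline hydrochloride with rats as replicates gave 45 and 48. Apart from the fits with rats as replicates, the adjusted p of Ugt2b1 ran from 0.00139 to 0.697 and that of Slc6a6 from 0.00718 to 0.187 (limma). Members called under 1-amino-2-methylanthraquinone (43) numbered 25 without background correction, 77 with the scanner ratio, 76 with the series table and 28 with scale normalization. Those called under tetracycline hydrochloride (4) numbered 7, 1, 12, 15 and 2 with median centring, without background correction, with the scanner ratio, with the series table and with the median over probes. Shared changes (73 higher, 71 lower) numbered 32 and 32 in the loess ratio, 233 and 295 at a limit midway between 1-fold and 1.5-fold, 27 and 19 at 2-fold, 2187 and 2693 at any size, and 106 and 111 with no filter on dim probes. Asked after seeing the data, 44 and 34 were well above background throughout, and 32 and 22 passed in both versions. Leaving out 1 rat gave 10 to 12 called higher and 3 to 6 lower under all 4, 0 to 2 and 0 to 4 in the contrast, 71 to 75 and 62 to 78 shared changes, and 39 to 45 and 3 to 7 members called under the other compounds. Hexachloroethane rat 3 (Rn.53923, Slc6a6), 1,2,3-trichloropropane rat 1 (Nqo1), monuron rats 3 and 4 and 1,2-dichlorobenzene rat 3 (Dusp1) each ended calls. Of 1056 values of named genes 957 moved by less than the SD between rats, 93 moved by more and 6 reversed, all with median centring: Ephx1 (-0.146), Cyp2c7 (-0.308), Cyp2c24 (-0.221), Gsta2 (-0.393), Cyfip2 (0.257) and Ppp2r2b (0.379). The cause was not tested. Same-numbered rats of different compounds did not deviate together (mean correlation 0.047, 8 of 24 arrays closest to their own number), and the replicate block changed no other count. Dim signal limits the 66 members with a channel not well above background on some array.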
